A study of Mus musculus with 12 samples.

Results

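The type I interferon response genes described here are 38 genes that interferon alpha and beta are known to act through or to induce: the receptor chains Ifnar1 and Ifnar2, the transcription factors Stat2, Irf9 and Irf7, the feedback inhibitor Usp18 and a set of induced antiviral, sensing and ubiquitin-like genes. They were chosen by gene symbol, and all 38 had a line in the deposited table of 45796 genes. Of these, 34 were above 0 in at least 1 of the 12 libraries, and Oas2, Oasl1, Oasl2 and Ifi204 were listed at 0 in every library. A mean of at least 5 over the 12 libraries was required for a test, and 10 of the 38 reached it. The values just inside this threshold were 6.38 for Ifnar2 and 6.19 for Irf9, and those just outside were 4.70 for Gbp2 and 4.41 for Rsad2.

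The RNA came from Vg4+Vd4+ gamma delta T cells, a T cell subset known for making interleukin 17 in skin, taken from the lymph nodes that drain the skin of C57BL/6 mice. The 4 groups had 3 libraries each. They were NF-kB1 deficient mice given imiquimod cream, wild type mice given imiquimod cream, NF-kB1 deficient mice given sham cream and wild type mice given sham cream. Imiquimod acts on Toll-like receptor 7 and inflames mouse skin, and NF-kB1 is the p105 precursor of the NF-kB subunit p50. The labels do not give the NF-kB1 allele, whether the gene was lost in every cell or in some, the age or number of mice, or the length of treatment, so the genotype groups stand for the mice as a whole and not for the gamma delta T cells alone. Nothing in the labels says that the 3 libraries of a group came from separate mice, and p-values therefore reflect library-to-library spread, which may be technical.

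As background, type I interferons bind a receptor made of Ifnar1 and Ifnar2, whose kinases Jak1 and Tyk2 phosphorylate STAT proteins. Of these, Stat2 joins Irf9 in ISGF3, which binds the interferon-stimulated response element (ISRE) in the promoters of target genes, while the gamma-activated site (GAS) is known for its part in the response to type II interferon. Plasmacytoid dendritic cells, which carry Toll-like receptor 7, are a known source of interferon alpha, and T cells are among the cells that respond to it.

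Promoter sequences of some of the 38 genes are shown with their matches, to let the response elements be seen beside the values. Of those printed, Sp100 and Ifi203 reached a limma adjusted p under 0.05 in a comparison below. Isg15, Isg20 and Trim30a were tested and did not, and Rsad2 was not tested. Shisa5 reached it too but is not printed, so the printed windows do not stand for the genes that changed. RefSeq promoters (GRCm38.p6, 250 bases before to 50 after a start) were found for 28 of the 38 genes, among them the 10 tested genes. The patterns searched on both strands were the core of the ISRE, GAAANNGAAA, and the GAS, TTCNNNGAA, which is its own reverse complement. The windows printed run 5′ to 3′ on the strand of the gene, from 130 bases before a start site to the base before it or, for Sp100 and Isg20, to the last base before the span of the gene. They overlap 0 annotated exons of GENCODE M21, and capitals mark the matches.
Ifi203 (chr1:173942493-173942622, minus strand): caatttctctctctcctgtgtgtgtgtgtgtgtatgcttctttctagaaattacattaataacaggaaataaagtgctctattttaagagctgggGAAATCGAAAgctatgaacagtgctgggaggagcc
Sp100 (chr1:85649858-85649947, plus strand): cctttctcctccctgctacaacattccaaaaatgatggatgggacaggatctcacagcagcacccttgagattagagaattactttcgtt
Isg15 (chr4:156200819-156200948, minus strand): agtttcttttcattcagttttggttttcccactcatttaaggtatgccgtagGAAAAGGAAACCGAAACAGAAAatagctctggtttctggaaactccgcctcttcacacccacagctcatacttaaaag
Isg20 (chr7:78913294-78913395, plus strand): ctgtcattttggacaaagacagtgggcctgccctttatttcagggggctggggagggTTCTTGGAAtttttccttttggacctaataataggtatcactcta
Trim30a (chr7:104465194-104465323, minus strand): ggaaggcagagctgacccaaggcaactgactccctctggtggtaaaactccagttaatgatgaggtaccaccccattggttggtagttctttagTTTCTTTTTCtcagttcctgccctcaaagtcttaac
Rsad2 (chr12:26456453-26456582, minus strand): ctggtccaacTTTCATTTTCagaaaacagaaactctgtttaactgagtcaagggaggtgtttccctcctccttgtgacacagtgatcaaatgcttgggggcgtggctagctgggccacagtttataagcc
Isg15 held 3 overlapping ISRE cores, and Ifi203 held 1, all on the strand of the gene. In Trim30a and Rsad2 the ISRE core lay on the opposite strand, and Isg20 held a GAS and no ISRE core. In Sp100 neither pattern was found in the searched windows, which says only that these letters are not there. An ISRE core was found in 13 of the 28 interferon response genes with a promoter (46.4%), against 3.99% of all 27025 genes and 3.44% of all 32851 promoter windows. Among the 10 tested genes, 4 held it, namely Isg15, Ifi203, Trim30a and Shisa5. A GAS was found in 10 of the 28 genes (35.7%), against 9.55% of all genes and 8.30% of all windows, and in Samhd1, Isg20, Shisa5 and Ifnar2 among the tested genes. The Shisa5 matches begin 32 (ISRE core) and 39 (GAS) bases after a start site that lies inside the span of the gene. The printed Ifi203 window also lies inside the span of its gene. A match is a description of letters and not a measured binding site.

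Values are normalized read counts on the linear scale, and the libraries were shallow. Steps in the low values imply 20507 to 69454 reads on genes per library (median 35383) and a value of 1 read between 0.488 and 1.98. By library these were 67042, 45957 and 51153 reads in NF-kB1-deficient imiquimod, 35154, 35611 and 20507 in wild-type imiquimod, 47412, 29115 and 27121 in NF-kB1-deficient sham and 30540, 69454 and 27959 in wild-type sham. Each NF-kB1-deficient imiquimod library was thus deeper than each wild-type imiquimod library, while the wild-type groups overlapped. The part of depth in the values below was not tested. A listed 0 can hide a read where 1 read was worth less than 1, namely in all NF-kB1-deficient imiquimod libraries, in NF-kB1-deficient sham replicate 1 and in wild-type sham replicate 2. In the 3 wild-type imiquimod libraries 1 read was worth 1.05, 1.05 and 1.98, so a single read gives a value above 0, but a low gene can draw no read at this depth, and a listed 0 there does not show that a gene was absent. Of the 12 gamma delta T cell markers with a line, 7 were above 0, and Trdc and Trdv4 were among the 5 at 0. The locus Tcrd was at 62.8, 53.5 and 58.9 in NF-kB1-deficient imiquimod, 14.1, 30.5 and 19.8 in wild-type imiquimod, 72.8, 66.1 and 40.3 in NF-kB1-deficient sham and 65.8, 68.7 and 76.8 in wild-type sham. Tcrd was lower in each wild-type imiquimod library than in each other library, and the other 6 markers were not: Tcrg, Cd3d, Cd3e, Cd3g, Tcrg-C2 and Sox13 each overlapped at least 1 other group, and Tcrg-C2 averaged 13.7 in NF-kB1-deficient imiquimod, 17.8 in wild-type imiquimod, 8.31 in NF-kB1-deficient sham and 18.6 in wild-type sham. The 12 markers summed to 168, 143 and 156 in NF-kB1-deficient imiquimod, 38.01, 105 and 76.6 in wild-type imiquimod, 189, 130.1 and 104 in NF-kB1-deficient sham and 119, 176 and 161 in wild-type sham. The part of these markers in the interferon values was not tested.

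The summed value of the 38 genes was low in the wild-type imiquimod libraries and in no other group. It came to 248, 344 and 214 in NF-kB1-deficient imiquimod, 68.7, 134 and 107 in wild-type imiquimod, 369, 298 and 311 in NF-kB1-deficient sham and 355, 256 and 378 in wild-type sham. The 3 wild-type imiquimod libraries lay below the other 9. In bulk RNA, fewer responding cells and less RNA per cell cannot be told apart.

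In wild-type mice the sum averaged 103 ± 33.0 under imiquimod and 330 ± 64.7 under sham (SD, n = 3 each), a ratio of 0.314 that ran from 0.267 to 0.366 as each library was left out. In NF-kB1-deficient mice it averaged 269 ± 67.6 under imiquimod and 326 ± 37.6 under sham, a ratio of 0.824 (0.709 to 0.908), and the libraries overlapped. The sham groups of both genotypes were close, with a ratio of NF-kB1 deficient to wild type of 0.988 (0.889 to 1.07). Under imiquimod the sum in NF-kB1-deficient libraries was 2.60 times that in wild-type libraries (2.22 to 3.06).

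The totals of the normalized values, which scaling makes similar, did not move this way, with a ratio of mean totals of 1.12 for wild-type imiquimod to sham, 0.980 for NF-kB1-deficient imiquimod to sham and 0.860 for NF-kB1 deficient to wild type under imiquimod. The implied reads given above did differ between the imiquimod groups. Shisa5 gave the greatest part of the sum, and without it the contrast was wider. The sum of the other 37 genes was 163, 213 and 164 in NF-kB1-deficient imiquimod, 48.8, 60.8 and 47.7 in wild-type imiquimod, 266, 159 and 177 in NF-kB1-deficient sham and 241, 156 and 262 in wild-type sham. The ratio of imiquimod to sham in wild type was then 0.239, and that of NF-kB1 deficient to wild type under imiquimod was 3.43. No test was run on the sums, since the genes were chosen with earlier results of these data known.

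**Figure D1:**
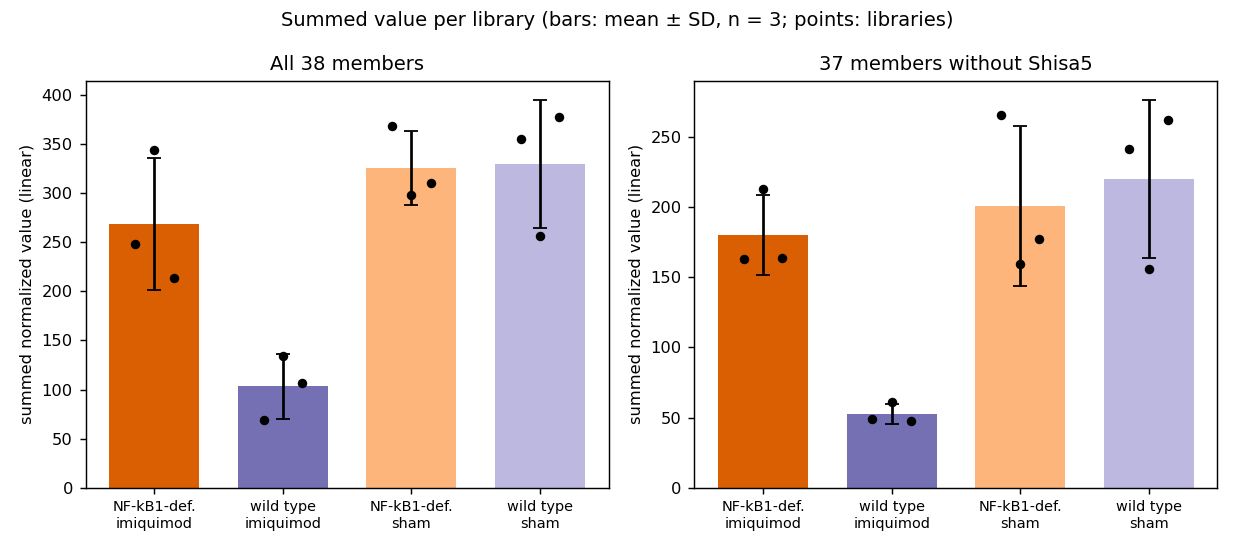
Summed linear normalized value per library (y axis) of all 38 interferon response genes (left) and of the 37 without Shisa5 (right) in the 4 groups (x axis), with bars for means, whiskers for SD (n = 3) and points for libraries. The 3 wild-type imiquimod libraries, at 68.7 to 134 on the left, lie below the other 9.

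In wild-type mice the question was which of the interferon response genes change under imiquimod. Sp100, Ifi203 and Shisa5 fell, and all 10 tested genes had lower fitted values under imiquimod. That is 3 of 10 called lower at a limma adjusted p under 0.05, against 1.59% of the 1571 genes tested (3.25% called in either direction). The groups did not overlap for 5 of the 10, all lower, against 10.8% of all genes, and 5 had an unadjusted p under 0.05, against 19.9%. The median log2 fold change of the 10 was -2.15, or -2.13 over the 7 that were above 0 in both groups, against -0.07 for all genes, of which 51.9% were lower.

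In NF-kB1-deficient mice 0 of the 10 were called between imiquimod and sham, as were 0 of the 1571 genes (limma, 0%), with 1 of the 10 and 53 of all genes (3.37%) at an unadjusted p under 0.05. For Irf9 and Isg20, 2 of the 10, the imiquimod libraries lay below all sham libraries, against 5.6% of all genes. The fitted values were lower for 4 and higher for 6, and the median was 0.13, against 0.14 for all genes. Between NF-kB1-deficient and wild-type sham 0 of the 10 were called, as were 0 of the 1571 genes (limma, 0%), with 0 of the 10 and 96 of all genes (6.11%) at an unadjusted p under 0.05. For Isg20 alone, 1 of the 10, the libraries did not overlap and NF-kB1 deficient was higher, against 4.71% of all genes. Values were lower for 5 and higher for 5, with a median of 0.03 against -0.02 for all genes.

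Between NF-kB1-deficient and wild-type imiquimod all 10 genes had higher fitted values in NF-kB1 deficient, against 844 of all 1571 genes. Sp100 alone of the 10 was called. That is 1 of 10, against 1.27% of all genes called higher and 1.78% called in either direction, and 4 of 10 had an unadjusted p under 0.05, against 14.3%. For 5 of the 10 the NF-kB1-deficient imiquimod libraries lay above all wild-type imiquimod libraries, against 10.8% of all genes. The median log2 fold change was 2.32, or 2.33 over the 7 genes above 0 in both groups, against 0.13 for all genes. This comparison and that of imiquimod with sham in wild type share the wild-type imiquimod libraries, so they are not separate evidence.

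The genotype by imiquimod interaction tests whether the response to imiquimod differed between genotypes. It was called for 0 of the 10 genes, against 0.446% of the 1571 (7 genes, limma), so a difference in response was not shown for any of them. All 10 interaction terms were above 0, against 864 of the 1571 genes. The median of the 10 was 1.59 (2.17 over the 7 genes above 0 in every group) against 0.24 for all genes. An unadjusted p under 0.05 was reached by 3 of the 10, Sp100, Ifi203 and Ifi47, against 10.8% of all genes.

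**Figure D2:**
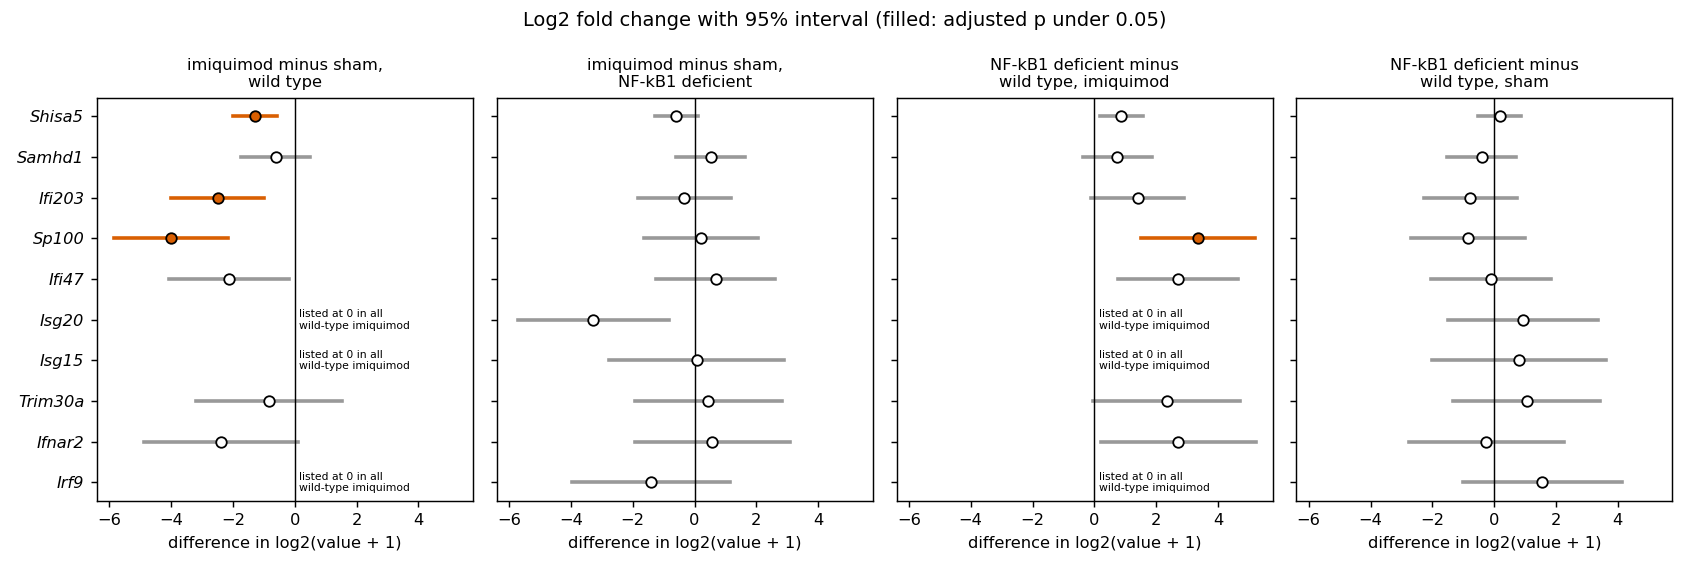
Log2 fold change on the log2(value + 1) scale (x axis) with its 95% interval for the 10 tested interferon response genes (y axis) in 4 comparisons, filled where the adjusted p was under 0.05. In the first panel Shisa5, Ifi203 and Sp100 are filled, in the third Sp100 alone, and no value is drawn for Isg20, Isg15 and Irf9 where all wild-type imiquimod libraries were at 0.

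Among the receptor chains, Ifnar2, which binds interferon tightly and anchors Jak1 (Entrez 15976; GRCm38 chromosome 16, 91372783 to 91405589), passed the filter. It was at 13.02, 5.59 and 5.19 in NF-kB1-deficient imiquimod, 1.05, 0 and 0 in wild-type imiquimod, 22.8, 0 and 6.29 in NF-kB1-deficient sham and 13.4, 8.02 and 1.24 in wild-type sham. All 3 NF-kB1-deficient imiquimod libraries lay above the wild-type imiquimod libraries, of which 1 held about 1 read and 2 none. The log2 fold change was 2.71 ± 1.27 (SE) between them (limma adjusted p = 0.288) and -2.38 ± 1.27 for imiquimod against sham in wild type (adjusted p = 0.279). Ifnar1, the other chain, was under the filter, at 4.51, 7.68 and 5.84 in NF-kB1-deficient imiquimod and 1.05, 0 and 4.62 in wild-type imiquimod. In sham it was at 0, 1.09 and 1.26 in NF-kB1 deficient and at 7.83, 0 and 1.24 in wild type, so the sham genotypes overlapped.

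Irf9, the DNA-binding part of ISGF3 (Entrez 16391; chromosome 14, 55603985 to 55610030), was listed at 0 in all 3 wild-type imiquimod libraries. It was at 6.01, 4.89 and 1.95 in NF-kB1-deficient imiquimod, 12.1, 23.0 and 6.29 in NF-kB1-deficient sham and 15.7, 4.39 and 0 in wild-type sham. Wild-type sham also held a library at 0, and neither imiquimod against sham in wild type (limma adjusted p = 0.349) nor NF-kB1 deficient against wild type under imiquimod (adjusted p = 0.420) was called. In NF-kB1-deficient mice every imiquimod library lay below every sham library, by a narrow margin of 6.01 to 6.29, and the log2 fold change was -1.41 ± 1.30 (adjusted p = 0.996).

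The other transcription factor genes were too low to test. Stat2, the partner of Irf9, was at 0 in all 3 NF-kB1-deficient imiquimod libraries and at 0, 9.47 and 1.98 in wild-type imiquimod, and had 0, 0 and 6.29 under NF-kB1-deficient sham and 0, 1.07 and 0 under wild-type sham. It was the reverse of most of the list, higher on average in wild-type than in NF-kB1-deficient imiquimod. Irf7, which amplifies interferon production, was at 4.76, 0 and 0 in NF-kB1-deficient imiquimod and at 0 in all wild-type imiquimod and NF-kB1-deficient sham libraries, and at 10.1, 0 and 7.45 in wild-type sham. Usp18, which removes Isg15 and blocks the receptor, averaged 1.73 ± 2.996 in NF-kB1-deficient imiquimod, 1.32 ± 2.29 in wild-type imiquimod, 1.23 ± 2.12 in NF-kB1-deficient sham and 0 in wild-type sham (SD, n = 3 each).

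Among the nucleic acid sensors, Ifi203, a PYHIN family protein (Entrez 15950; chromosome 1, 173920400 to 173942866), fell in wild-type mice. It was at 7.76, 36.3 and 12.97 in NF-kB1-deficient imiquimod, 3.49, 2.11 and 16.8 in wild-type imiquimod, 23.2, 24.1 and 13.8 in NF-kB1-deficient sham and 26.3, 19.8 and 77.6 in wild-type sham. The wild-type imiquimod libraries lay below the wild-type sham libraries and overlapped the NF-kB1-deficient imiquimod libraries.

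In wild type Ifi203 averaged 7.48 ± 8.13 under imiquimod and 41.2 ± 31.7 under sham (SD, n = 3 each), and the log2 fold change was -2.49 ± 0.76 (SE; 95% interval -4.00 to -0.99; limma adjusted p = 0.0423). The call was lost in 12 of 21 alternatives, with adjusted p from 0.00974 to 0.393 over them, and without wild-type sham replicate 3, its highest library, the adjusted p was 0.270. In NF-kB1-deficient mice the log2 fold change of imiquimod against sham was -0.33 ± 0.76 (adjusted p = 0.996), and the interaction was 2.17 ± 1.08 (adjusted p = 0.458). Ifi203 sits in a cluster of closely related genes, and how reads shared among them were counted is not given in the sources used here, so its value is uncertain.

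Zbp1, a sensor of Z-form nucleic acid, was at 0 in all wild-type imiquimod libraries, and averaged 0.501 ± 0.867 in NF-kB1-deficient imiquimod, 6.09 ± 4.60 in NF-kB1-deficient sham and 1.77 ± 3.06 in wild-type sham. The RNA sensors Ifih1 and Dhx58 were below a mean of 1. Of the 2-5A synthetases, which activate RNase L on double-stranded RNA, Oas3 alone had a mean of 1 or more. It averaged 0.668 ± 1.16 in NF-kB1-deficient imiquimod, 0 in wild-type imiquimod, 3.98 ± 4.72 in NF-kB1-deficient sham and 2.70 ± 3.14 in wild-type sham. Oas1a was above 0 in 1 library.

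Among the antiviral effectors, Samhd1, which breaks down deoxynucleotides (Entrez 56045; chromosome 2, 157097534 to 157135096), was not called in any comparison. It was at 25.7, 42.4 and 39.6 in NF-kB1-deficient imiquimod, 35.4, 23.2 and 10.4 in wild-type imiquimod, 27.8, 12.04 and 40.9 in NF-kB1-deficient sham and 22.8, 29.9 and 48.4 in wild-type sham. All groups overlapped, and the log2 fold change of imiquimod against sham was -0.62 ± 0.56 in wild type (95% interval -1.74 to 0.50; limma adjusted p = 0.571) and 0.53 ± 0.56 in NF-kB1 deficient (-0.59 to 1.64; adjusted p = 0.996).

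Isg20, an exonuclease that degrades RNA (Entrez 57444; chromosome 7, 78913396 to 78920396), was low under imiquimod in both genotypes. It was at 0, 8.38 and 0 in NF-kB1-deficient imiquimod, 0 in all 3 wild-type imiquimod libraries, 20.6, 16.4 and 21.4 in NF-kB1-deficient sham and 11.2, 6.35 and 12.4 in wild-type sham. In each genotype every imiquimod library lay below every sham library, and each NF-kB1-deficient sham library lay above each wild-type sham library.

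The test did not call Isg20 in wild type (limma adjusted p = 0.103, 0.0596 to 0.499 over 20 alternatives). In NF-kB1-deficient mice the log2 fold change was -3.27 ± 1.23 (unadjusted p = 0.00875, adjusted p = 0.956). The values imply 12 reads over the 3 libraries of NF-kB1-deficient imiquimod and 60 over those of NF-kB1-deficient sham. The log2 fold change between the sham genotypes was 0.94 ± 1.23 (adjusted p = 0.970).

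The IFIT proteins bind viral RNA, and all 3 IFIT genes measured here were under the filter. Ifit1 averaged 1.03 ± 1.05 in NF-kB1-deficient imiquimod, 0 in wild-type imiquimod, 5.25 ± 7.03 in NF-kB1-deficient sham and 3.32 ± 2.06 in wild-type sham. Ifit2 averaged 2.46 ± 2.14 in NF-kB1-deficient imiquimod, 0 in wild-type imiquimod, 0.490 ± 0.849 in NF-kB1-deficient sham and 2.30 ± 2.24 in wild-type sham. Ifit3 averaged 3.16 ± 3.54 in NF-kB1-deficient imiquimod, 1.75 ± 3.04 in wild-type imiquimod, 3.74 ± 4.08 in NF-kB1-deficient sham and 0.814 ± 1.41 in wild-type sham. Ifit1 and Ifit2 were thus at 0 in every wild-type imiquimod library, while Ifit3 was above 0 in 1 of them.

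Rsad2 (viperin), whose window is printed above, was at 3.004, 4.89 and 0 in NF-kB1-deficient imiquimod, 1.05, 0 and 1.98 in wild-type imiquimod, 6.25, 7.66 and 0 in NF-kB1-deficient sham and 26.3, 0 and 1.86 in wild-type sham. A single sham library carried its wild-type sham mean. Adar, which edits adenosine in double-stranded RNA, averaged 0.835 ± 1.45 in NF-kB1-deficient imiquimod, 0 in wild-type imiquimod, 3.36 ± 5.81 in NF-kB1-deficient sham and 2.06 ± 1.89 in wild-type sham. Mx1 and Bst2, which block virus replication and release, were below a mean of 1.

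Among the ubiquitin-like and ADP-ribosylation genes, Isg15, the ubiquitin-like modifier itself (Entrez 100038882; chromosome 4, 156199424 to 156200818), was at 0 in all 3 wild-type imiquimod libraries. It was at 7.11, 2.44 and 8.65 in NF-kB1-deficient imiquimod, 11.0, 0 and 18.2 in NF-kB1-deficient sham and 43.0, 0 and 0 in wild-type sham. All NF-kB1-deficient imiquimod libraries were above 0, but 2 of 3 wild-type sham libraries were at 0 as well. No comparison of Isg15 was called, with a limma adjusted p of 0.505 for imiquimod against sham in wild type and 0.376 for NF-kB1 deficient against wild type under imiquimod.

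Trim30a, a TRIM family protein that restrains Toll-like receptor signalling in mice (Entrez 20128; chromosome 7, 104409025 to 104465193), was at 14.5, 2.79 and 19.8 in NF-kB1-deficient imiquimod, 3.67, 1.05 and 0 in wild-type imiquimod, 8.82, 7.12 and 5.03 in NF-kB1-deficient sham and 2.24, 15.8 and 0 in wild-type sham. The groups overlapped in all 4 comparisons. The log2 fold change was 2.33 ± 1.20 for NF-kB1 deficient against wild type under imiquimod (limma adjusted p = 0.354) and -0.83 ± 1.20 for imiquimod against sham in wild type (adjusted p = 0.755). Trim30a has closely related neighbours among which its reads could have been split.

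Parp14, an ADP-ribosyltransferase, was under the filter and stood out within it. It was at 8.01, 15.02 and 5.86 in NF-kB1-deficient imiquimod, 1.05, 1.05 and 0 in wild-type imiquimod, 2.21, 0 and 0 in NF-kB1-deficient sham and 0, 2.93 and 0 in wild-type sham. The 3 NF-kB1-deficient imiquimod libraries lay above the other 9, and this was singled out after the values were seen. Its partner Parp9 was below a mean of 1.

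Among the GTPases, Ifi47, an immunity-related GTPase of mice (Entrez 15953; chromosome 11, 49076587 to 49096987), was at 19.0, 16.8 and 24.0 in NF-kB1-deficient imiquimod, 1.05, 14.7 and 0 in wild-type imiquimod, 24.3, 7.66 and 8.81 in NF-kB1-deficient sham and 6.71, 18.1 and 17.4 in wild-type sham. The NF-kB1-deficient imiquimod libraries lay above all wild-type imiquimod libraries, of which replicate 2 was near the sham level. The log2 fold change was 2.70 ± 0.98 for NF-kB1 deficient against wild type under imiquimod (limma adjusted p = 0.153) and -2.13 ± 0.98 for imiquimod against sham in wild type (adjusted p = 0.192). Without wild-type imiquimod replicate 2 both were called, with adjusted p of 0.0254 and 0.0471. Gbp2, a guanylate-binding protein under the filter, averaged 3.83 ± 3.54 in NF-kB1-deficient imiquimod, 0.660 ± 1.14 in wild-type imiquimod, 7.81 ± 6.91 in NF-kB1-deficient sham and 6.48 ± 3.89 in wild-type sham.

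Among the remaining induced genes, Sp100, a protein of PML nuclear bodies (Entrez 20684; chromosome 1, 85649948 to 85709998), was nearly absent in wild-type imiquimod. It was at 17.5, 26.2 and 11.98 in NF-kB1-deficient imiquimod, 1.05, 0 and 1.98 in wild-type imiquimod, 27.9, 19.7 and 6.29 in NF-kB1-deficient sham and 17.9, 17.1 and 72.0 in wild-type sham. The 3 wild-type imiquimod libraries lay below the other 9. The values imply 2 reads in all over the wild-type imiquimod libraries, against 91.0 in NF-kB1-deficient imiquimod, 61.0 in NF-kB1-deficient sham and 109 in wild-type sham.

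Sp100 fell in wild type with a log2 fold change of -4.00 ± 0.93 (SE; 95% interval -5.84 to -2.16; limma adjusted p = 0.00338), and the call was lost in 2 of 20 alternatives, with adjusted p from 0.00221 to 0.101 over them. The highest of these was without wild-type sham replicate 3. Under imiquimod it was higher in NF-kB1 deficient than in wild type by 3.36 ± 0.93 (1.51 to 5.20; adjusted p = 0.0339), a call lost in 12 of 20 alternatives (0.0194 to 0.361), 7 of which left out a library (0.0511 to 0.319). In NF-kB1-deficient mice the log2 fold change of imiquimod against sham was 0.19 ± 0.93 (adjusted p = 0.996). The interaction was 4.19 ± 1.32 (unadjusted p = 0.00178, adjusted p = 0.194) and was not called.

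Shisa5, a membrane protein also known as scotin (Entrez 66940; chromosome 9, 109038567 to 109057792), had the most reads of the list. It was at 85.1, 131 and 49.9 in NF-kB1-deficient imiquimod, 19.9, 73.7 and 59.4 in wild-type imiquimod, 103, 139 and 133 in NF-kB1-deficient sham and 114, 100.1 and 116 in wild-type sham. The wild-type imiquimod libraries lay below all sham libraries and overlapped the NF-kB1-deficient imiquimod libraries.

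In wild type Shisa5 averaged 51.0 ± 27.9 under imiquimod and 109.9 ± 8.53 under sham (SD, n = 3 each), and the log2 fold change was -1.28 ± 0.36 (SE; 95% interval -1.98 to -0.58; limma adjusted p = 0.0224). The call was lost in 7 of 21 alternatives (0.00554 to 0.458). Without wild-type imiquimod replicate 1 the log2 fold change was -0.72 and the adjusted p was 0.280, and without wild-type sham replicate 1 or 3 the adjusted p was 0.0718 or 0.102. In NF-kB1-deficient mice the log2 fold change was -0.58 ± 0.36 (adjusted p = 0.996), and the interaction was 0.70 ± 0.50 (adjusted p = 0.668).

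**Figure D3:**
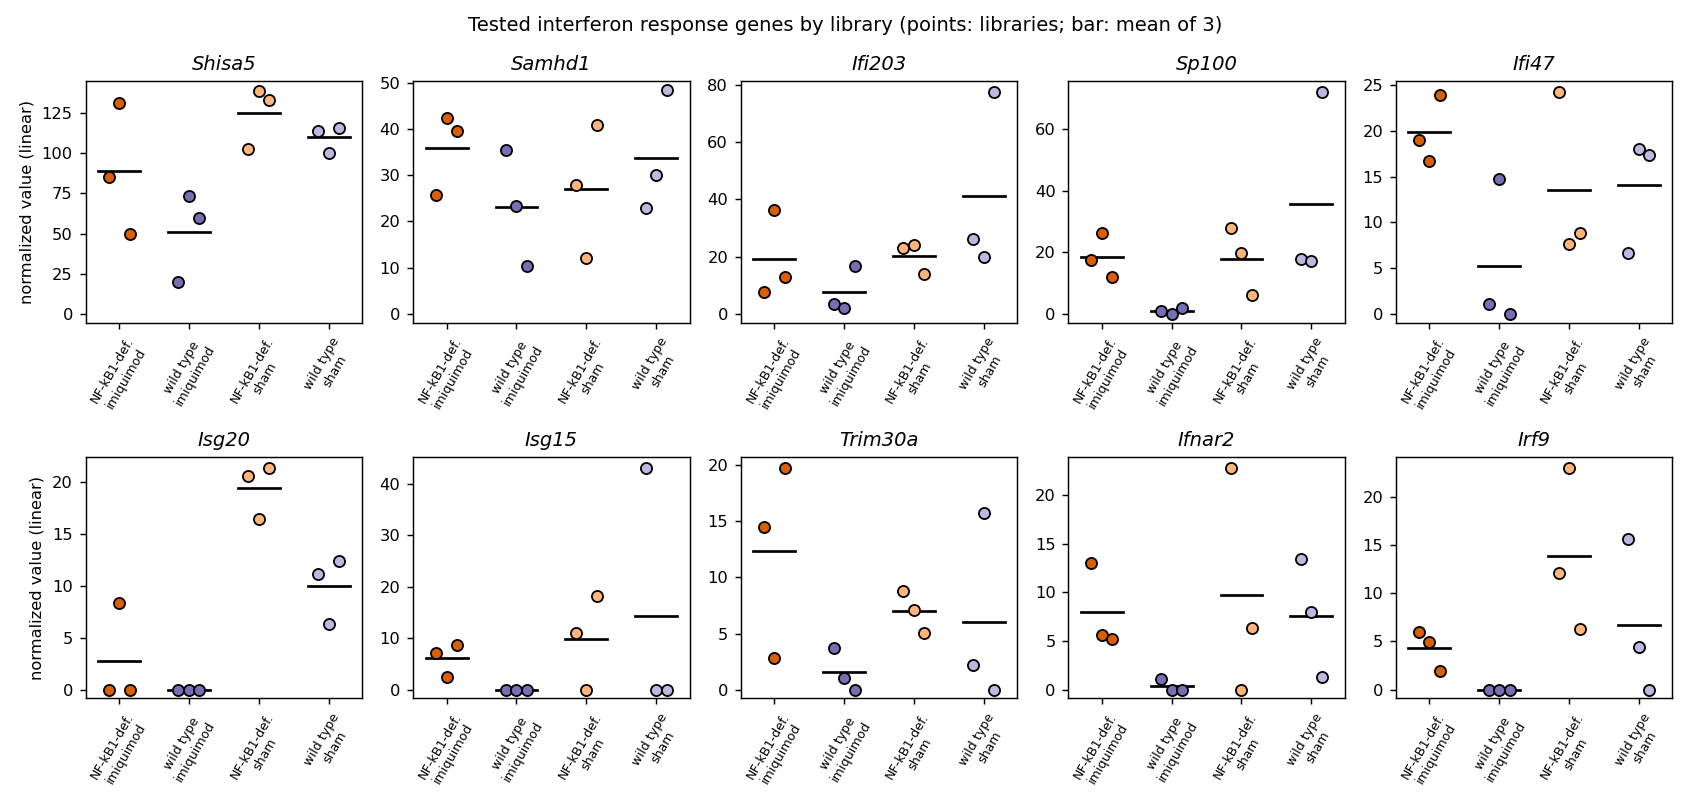
Linear normalized values (y axis) of the 10 tested interferon response genes in each library of the 4 groups (x axis), with points for libraries and a bar for the mean of 3. In Sp100 the wild-type imiquimod points lie at 0 to 1.98 and the other 9 at 6.29 or more, and Isg20 is low under imiquimod in both genotypes.

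Of the other induced genes under the filter, Rtp4, a chaperone of receptor trafficking, was above 0 in 3 of 3 NF-kB1-deficient imiquimod libraries, at 3.51, 5.59 and 7.78. It was at 0 in all wild-type imiquimod libraries, while NF-kB1-deficient sham had 8.09, 0 and 10.1 and wild-type sham had 4.47, 2.44 and 7.45. Ifi27l2a, a small interferon-induced protein, averaged 2.47 ± 3.14 in NF-kB1-deficient imiquimod, 0 in wild-type imiquimod, 9.38 ± 3.86 in NF-kB1-deficient sham and 2.65 ± 3.57 in wild-type sham. Ifi44 averaged 3.82 ± 1.78 in NF-kB1-deficient imiquimod, 0.351 ± 0.608 in wild-type imiquimod, 0 in NF-kB1-deficient sham and 0.559 ± 0.968 in wild-type sham. Xaf1, a pro-apoptotic protein, averaged 0.835 ± 1.45 in NF-kB1-deficient imiquimod, 0 in wild-type imiquimod, 3.43 ± 5.94 in NF-kB1-deficient sham and 0.745 ± 1.29 in wild-type sham. Rtp4, Ifi27l2a and Xaf1 were therefore each at 0 in all wild-type imiquimod libraries and above 0 in at least 1 library of each other group. Each was also at 0 in some libraries of the other groups, and Xaf1 was above 0 in only 1 of 3 libraries of each.

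Across the 24 genes under the filter that were above 0 somewhere, the mean was higher in NF-kB1-deficient than in wild-type imiquimod for 21, lower for 2 and equal for 1. These 24 included 7 with a mean above 0 and below 1, whose highest value in any library was 6.21, for Dhx58. In wild-type mice the mean was lower under imiquimod than under sham for 16, higher for 6 and equal for 2. In NF-kB1-deficient mice it was lower for 12, higher for 10 and equal for 2. Over all 9732 genes above 0 in any library, fitted log2 values were lower in NF-kB1-deficient than in wild-type imiquimod for 34.1%. They were lower under imiquimod than under sham for 43.0% in wild type and 37.8% in NF-kB1 deficient. Genes at 0 in both groups are neither lower nor higher, and the 24 were counted by linear means, so these are not like measures. By fitted values, 5.88% of the 34 interferon response genes above 0 were lower in NF-kB1-deficient than in wild-type imiquimod. Under imiquimod against sham 73.5% of the 34 were lower in wild type and 44.1% in NF-kB1 deficient. Genes at 0 in the whole group numbered 3 of the 24 in NF-kB1-deficient imiquimod, 13 in wild-type imiquimod, 6 in NF-kB1-deficient sham and 6 in wild-type sham. Among all 9732 genes above 0 in any library, 27.6% were at 0 throughout NF-kB1-deficient imiquimod, 40.6% throughout wild-type imiquimod, 35.5% throughout NF-kB1-deficient sham and 35.1% throughout wild-type sham. These 9732 include the 1571 tested genes, of which at most 1.40% were at 0 throughout any 1 group. The shares among genes under the filter are therefore higher than these and are not given here, so the 24 are not set against like genes. Among the tested genes, 3 of 10 were at 0 throughout wild-type imiquimod, against 22 of 1571 (1.40%).

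**Figure D4:**
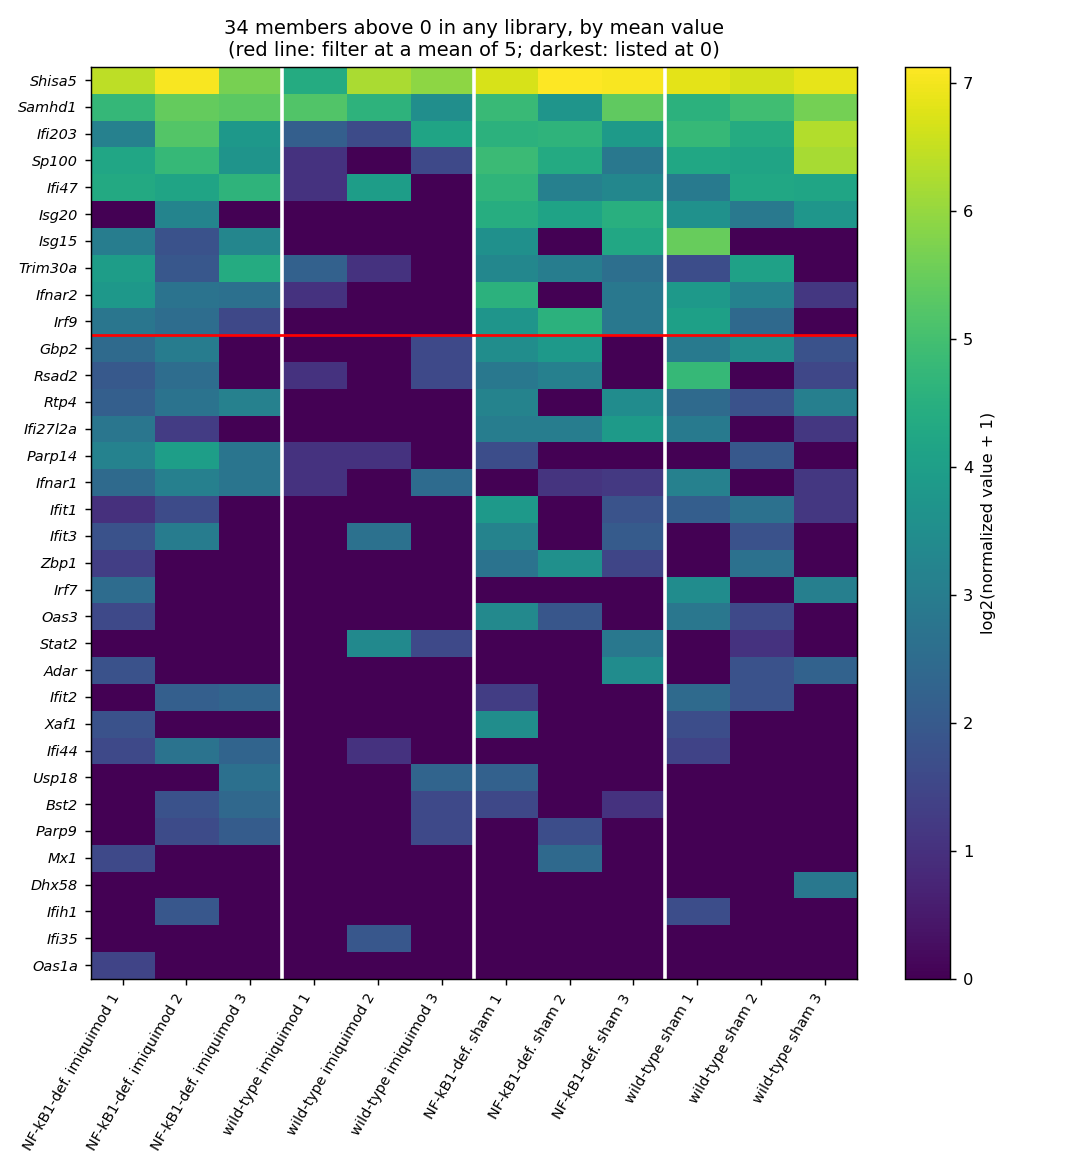
Log2(normalized value + 1) (colour) of the 34 interferon response genes above 0 in any library (rows, by mean) in the 12 libraries (columns, by group), with a red line under the 10 tested genes. Of the 24 genes below the line, 13 are at 0 in all 3 wild-type imiquimod libraries and 3 in all NF-kB1-deficient imiquimod libraries. Over all 9732 genes above 0 in any library, tested genes included, these shares are 40.6% and 27.6%.

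The rest of the pathway was followed in a list of 153 other genes (interferons, other receptor chains, kinases and STATs, interferon regulatory factors, sensing genes, inhibitors and further induced genes), of which 151 had a line and 30 were tested. This list too was chosen with earlier results of these data known, so its counts are a description and not separate evidence. In wild-type mice 2 of the 30, Ms4a4b and Ms4a6b, fell under imiquimod (1.59% of all genes). An unadjusted limma p under 0.05 was reached by 11 (19.9% of all genes). Values were lower for 23 (51.9% of all genes), and the median log2 fold change was -1.11. In NF-kB1-deficient mice 0 of 30 were called by limma between imiquimod and sham, against 0% of all genes, and 0 had an unadjusted p under 0.05, against 3.37%. Between the sham genotypes limma also called 0 of 30, against 0% of all genes, and 0 had an unadjusted p under 0.05, against 6.11%. Under imiquimod 5 of 30 (1.27% of all genes) were called higher in NF-kB1 deficient than in wild type. An unadjusted limma p under 0.05 was reached by 16 (14.3% of all genes). Values were higher for 27, against 844 of all 1571 genes, and the median was 1.73. The interaction was called by limma for 0 of 30, against 0.446% of all genes, with a lowest adjusted p of 0.208, and 9 had an unadjusted p under 0.05, against 10.8%.

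The interferons themselves were not seen: 20 of 21 listed ligands were at 0 in all 12 libraries. The other, Ifng (type II interferon), was at 15.8 in wild-type imiquimod replicate 3 and at 0 elsewhere. Of the receptor kinases, Tyk2 was under the filter and at 0 in 9 of 12 libraries. Jak1 was at 26.8, 42.3 and 22.4 in NF-kB1-deficient imiquimod, 6.29, 14.2 and 17.8 in wild-type imiquimod, 39.0, 32.8 and 45.3 in NF-kB1-deficient sham and 33.5, 22.2 and 19.3 in wild-type sham. The 3 wild-type imiquimod libraries lay below the other 9, but the log2 fold change was -0.99 ± 0.59 against wild-type sham (limma adjusted p = 0.349) and 1.25 ± 0.59 for NF-kB1 deficient against wild type under imiquimod (adjusted p = 0.298). Among the other receptor chains Ifngr1, which binds type II interferon, was at 19.0, 23.1 and 18.2 in NF-kB1-deficient imiquimod, 8.38, 7.37 and 1.98 in wild-type imiquimod, 11.8, 15.3 and 22.7 in NF-kB1-deficient sham and 13.4, 27.8 and 19.8 in wild-type sham, and no comparison of it was called.

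Irf1, an interferon-induced transcription factor, was at 31.5, 21.7 and 16.2 in NF-kB1-deficient imiquimod, 2.10, 7.37 and 1.98 in wild-type imiquimod, 28.7, 16.4 and 10.1 in NF-kB1-deficient sham and 20.1, 19.0 and 30.4 in wild-type sham. The wild-type imiquimod libraries lay below the other 9, and neither comparison with them was called, at a log2 fold change of 2.45 ± 0.82 for NF-kB1 deficient against wild type under imiquimod (limma adjusted p = 0.107) and -2.48 ± 0.82 for imiquimod against sham in wild type (adjusted p = 0.0720).

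Among further induced genes, B2m, the light chain of MHC class I (Entrez 12010; chromosome 2, 122147687 to 122153082), was at 215, 177 and 154 in NF-kB1-deficient imiquimod, 102, 72.7 and 68.7 in wild-type imiquimod, 172, 121 and 139 in NF-kB1-deficient sham and 133, 144 and 157 in wild-type sham. The wild-type imiquimod libraries were below the other 9, and B2m was higher in NF-kB1 deficient than in wild type under imiquimod by 1.16 ± 0.29 (limma adjusted p = 0.0152; lost without NF-kB1-deficient imiquimod replicate 1 or 2, at 0.159 and 0.125, and in 4 of 21 alternatives in all). Its log2 fold change under imiquimod in wild type was -0.84 ± 0.29 (adjusted p = 0.0849).

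Ms4a4b and Ms4a6b, membrane proteins of leukocytes, were called in both comparisons with wild-type imiquimod. Ms4a4b was at 109, 163 and 70.4 in NF-kB1-deficient imiquimod, 33.5, 32.6 and 16.8 in wild-type imiquimod, 154, 142 and 122 in NF-kB1-deficient sham and 109.7, 105 and 88.2 in wild-type sham. It fell under imiquimod in wild type by 1.89 ± 0.35 on the log2 scale (limma adjusted p = 0.000101) and was higher in NF-kB1 deficient than in wild type under imiquimod by 1.99 ± 0.35 (adjusted p = 6.4e-05). Each call was lost in 1 of 21 alternatives. Ms4a6b was at 23.0, 31.4 and 13.6 in NF-kB1-deficient imiquimod, 0, 12.6 and 1.98 in wild-type imiquimod, 50.1, 79.9 and 21.4 in NF-kB1-deficient sham and 32.4, 41.0 and 17.4 in wild-type sham. Its calls had adjusted p of 0.00416 for imiquimod against sham in wild type and 0.0290 for NF-kB1 deficient against wild type under imiquimod, and were lost in 5 and 10 of 21 alternatives.

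Epsti1, named for epithelial and stromal interaction, was at 27.0, 23.1 and 37.99 in NF-kB1-deficient imiquimod, 2.10, 23.2 and 0 in wild-type imiquimod, 21.3, 48.1 and 26.4 in NF-kB1-deficient sham and 8.94, 31.7 and 31.1 in wild-type sham. It was called higher in NF-kB1 deficient than in wild type under imiquimod (2.82 ± 0.77, limma adjusted p = 0.0290), although the libraries overlapped and the call was lost in 10 of 21 alternatives (highest adjusted p = 0.371).

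**Figure D5:**
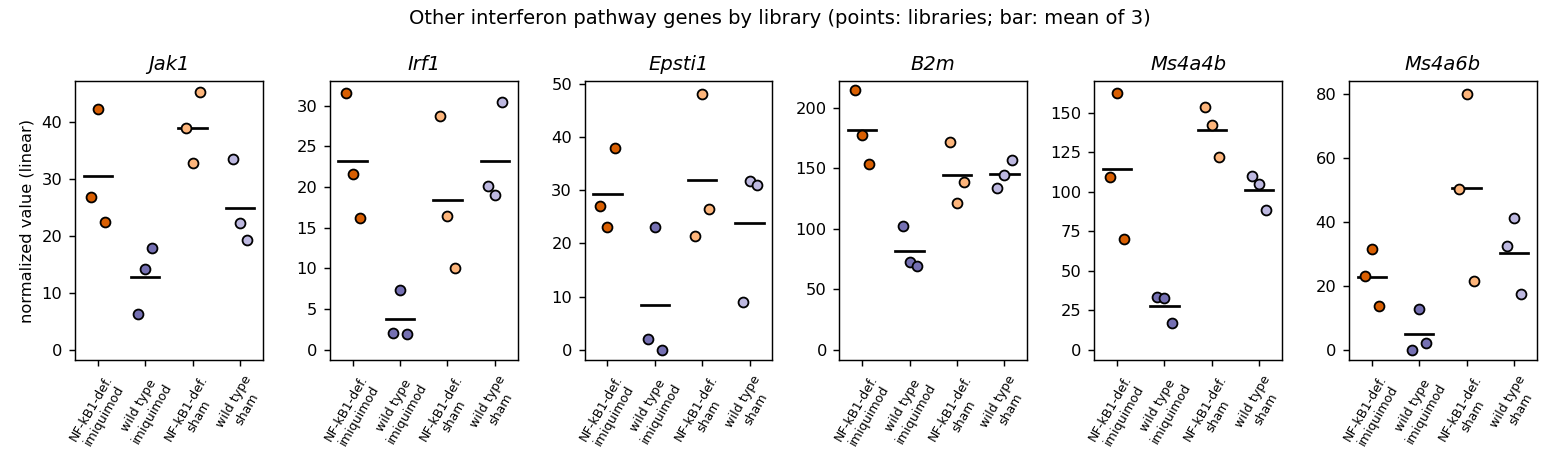
Linear normalized values (y axis) of 6 other interferon pathway genes in each library of the 4 groups (x axis), with points for libraries and a bar for the mean of 3. The wild-type imiquimod points lie below the other 9 for Jak1, Irf1, B2m, Ms4a4b and Ms4a6b and overlap them for Epsti1.

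Markers of other cell types were read beside these values. The plasmacytoid dendritic cell list summed to 22.5, 32.5 and 39.2 in NF-kB1-deficient imiquimod, 0, 22.1 and 3.96 in wild-type imiquimod, 33.8, 38.3 and 22.0 in NF-kB1-deficient sham and 24.6, 46.2 and 40.4 in wild-type sham. Its group mean was lowest in wild-type imiquimod, as for the interferon response genes, but the 2 sums did not move together library by library. Wild-type imiquimod replicate 2, at 22.1, lay above NF-kB1-deficient sham replicate 3, at 22.0. Within wild-type imiquimod both sums ranked alike, but in each other group the library with the highest list sum had the lowest interferon sum. Of the 7 genes in the list 3, the defining Siglech among them, were at 0 in every library. Ccr9, which some T cells also carry, made up most of the list sum. The macrophage, monocyte and conventional dendritic cell list ran from 6.26 to 24.1 in NF-kB1-deficient imiquimod, 7.34 to 29.7 in wild-type imiquimod, 13.1 to 20.5 in NF-kB1-deficient sham and 11.2 to 24.4 in wild-type sham, and 6 of its 12 genes, Lyz2, Csf1r and Cd74 among them, were at 0 in every library. The neutrophil list was at 0 in all 12 libraries, and 4 of 5 B cell markers were at 0, with Ighm at 1.46 in 1 wild-type sham library. The NK cell list, all of it from Eomes, ran from 0 to 10.5 in NF-kB1-deficient imiquimod and 0 to 1.98 in wild-type imiquimod. It ran from 0 to 8.81 in NF-kB1-deficient sham and 0 to 7.45 in wild-type sham. The alpha beta T cell list ran from 84.6 to 90.3 in NF-kB1-deficient imiquimod, 60.6 to 85.4 in wild-type imiquimod, 88.0 to 109.0 in NF-kB1-deficient sham and 78.6 to 110.1 in wild-type sham, mostly from Tcrb, with Cd4 at 0 throughout. The plasma cell list summed to 2.25, 4.89 and 16.2 in NF-kB1-deficient imiquimod and 14.7, 7.37 and 0 in wild-type imiquimod. It was at 0 in all NF-kB1-deficient sham libraries and at 0, 2.93 and 6.21 in wild-type sham. Jchain, Mzb1, H2-Aa, H2-Ab1 and Ly6d were above 0 only in NF-kB1-deficient imiquimod replicate 3, at 7.14, 4.54, 2.59, 5.19 and 6.81. The part of any of these lists in the interferon values was not tested.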

How the data were processed

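RNA was read near the 3′ end of polyadenylated transcripts (QuantSeq FWD kit, per the labels' protocols) and mm10 was the build named in the submitters' processing notes. For aligner, counting and normalization the tool is not given in the sources used here. Per the file itself, the values deposited by the authors are log2 normalized read counts. Each was taken back to the linear scale, and a listed 0 stayed 0. Low values were whole multiples of 1 read (within 0.01) for 71.0% to 80.3% of values under 20 reads, too few to recover counts, so no count test was run.

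Differences were tested by limma 3.58.1 under R 4.3.3 with the data.table package in version 1.17.8, on log2(value + 1), which understates the fold change of low genes. All 12 libraries entered 1 fit of the 1571 genes with a mean of at least 5, followed by eBayes with trend and robust (8 residual degrees of freedom, median prior 145). P-values were adjusted by Benjamini-Hochberg over these 1571, and genes under 0.05 were called. The fit was tested on simulated data with known rises in wild-type imiquimod before use. Of 50 genes at each fold, 6% were called at 2-fold, 40% at 4-fold, 76% at 8-fold and 96% at 16-fold. Of 1421 unchanged genes 3 were called. The dispersion, which sets the spread between libraries, was 0.387 throughout. How many unchanged genes are called where spread differs from gene to gene was not tested. Falls were not simulated, and a gene that was not called can still have changed.

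The interferon genes, the pathway and marker lists and the rules were chosen with earlier results of these data known. Tested genes are given in every library. Genes under the filter are named with values from a mean of 1 up. Of the other pathway genes, those called in a comparison are named, with the ligands, receptor chains, Jak1, Tyk2 and Irf1, except 1 that is counted but not reported here. Libraries were compared before averaging, and 0 of 66 pairs held identical values. Alternatives were other pseudocounts (0.1, 10), other filters (none, 2, 20), equal library totals, no trend or robust, a replicate block, only the libraries compared, and each library left out.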

Additional observations from a re-analysis of the deposited data

How the results depend on the processing

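With other pseudocounts, scaling or eBayes settings the 10 tested genes stayed lower in wild-type imiquimod than in wild-type sham and higher in NF-kB1-deficient than in wild-type imiquimod. Other filters test other genes: 3 and 3 of 3 went this way with a filter at 20, 17 and 19 of 19 with a filter at 2, and 25 and 31 of 34 without a filter. The interaction was above 0 for 8 of 10 with a pseudocount of 10, 16 of 19 with a filter at 2 and 27 of 34 without a filter. Called interferon response genes for imiquimod against sham in wild type were 3 as reported, 1 with a pseudocount of 0.1, no filter, a filter at 20 (Sp100 untested) or no trend or robust, 0 with only the libraries compared, and 0 to 3 as each library was left out. For NF-kB1 deficient against wild type under imiquimod 1 became 0 with a pseudocount of 10, no filter, a filter at 2, no trend or robust, or only the libraries compared, and was 0 to 1 without 1 library. It was also 0 with a filter at 20, which leaves Sp100, the gene called, untested. Without a filter 9732 genes were tested. Of these, 43.0% were lower in wild-type imiquimod than in wild-type sham (73.5% of the 34 interferon response genes). In NF-kB1-deficient imiquimod 34.1% were lower than in wild-type imiquimod (5.88% of the 34). Genes at 0 in both groups are neither lower nor higher. The interaction was below 0 for 44.4% of the 9732 (20.6% of the 34).

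Of all genes, 51 were called for imiquimod against sham in wild type (26 higher, 25 lower). This was 26 with a pseudocount of 0.1, 11 with no filter, 18 without trend or robust, 28 with only the libraries compared and 23 to 72 without 1 library. For NF-kB1 deficient against wild type under imiquimod 28 (20 higher, 8 lower) became 18 with a pseudocount of 0.1, 3 with no filter, 18 with a filter at 2, 0 without trend or robust, 17 with only the libraries compared (5 higher, 12 lower) and 4 to 42 without 1 library. For the interaction 7 became 1 with no filter, 13 with a filter at 20, 0 without trend or robust and 2 to 12 without 1 library. The sham genotypes had 0 to 1 without 1 library, and imiquimod against sham in NF-kB1 deficient had 1 with only the libraries compared. With equal library totals the split was 19 higher and 29 lower in wild type and 25 higher and 5 lower between genotypes under imiquimod, while a pseudocount of 10 gave 47 and 25, and 11 and 17. Equal totals moved the median of all genes to -0.25 in wild type, 0.34 between genotypes under imiquimod and 0.41 for the interaction, and the median of the tested interferon genes to -2.19, 2.40 and 1.66.

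Signs of small changes turned. With a pseudocount of 10 Isg15 was -0.19 for imiquimod against sham in NF-kB1 deficient and Ifnar2 was 0.057 between the sham genotypes. Without 1 library the log2 fold change of Trim30a in wild type ran from -1.79 to 0.24. For imiquimod against sham in NF-kB1 deficient it ran from -0.91 to 0.13 for Ifi203, -0.67 to 1.62 for Ifnar2, -1.24 to 0.90 for Isg15, -0.39 to 0.61 for Sp100 and -0.030 to 1.20 for Trim30a. Between the sham genotypes it ran from -0.60 to 0.18 for Ifi47, -1.30 to 0.99 for Ifnar2, -0.11 to 2.62 for Isg15 and -0.78 to 0.066 for Samhd1. None of these was called.

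Same-numbered replicates did not visibly deviate together over the tested genes (correlations -0.00983 to 0.0609). In libraries this shallow such correlations cannot settle whether the numbers pair the libraries, and the labels do not say. With a replicate block the calls were 55 and 32 in the comparisons with wild-type imiquimod and 7 for the interaction, and 3 and 1 interferon response genes were called in those comparisons. The cause of the moves above was not tested. Over the tested genes the 95% interval of a log2 fold change extended by a median of 2.21 on each side, and how much of this is depth and how much spread between libraries was not tested.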
